A study of Homo sapiens with 6 samples.

Results

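The genes described here are 39 genes of the NRF2, thioredoxin, glutathione and iron-storage systems, out of 46427 genes in the deposited table. These genes were chosen by name for their function, with earlier results of these data known. They comprise 7 genes grouped as regulators of the NRF2 pathway, among them OSGIN1, which is itself an NRF2 target. The others are 7 genes of the thioredoxin and glutaredoxin systems, 6 peroxiredoxins, 3 superoxide dismutase and catalase genes and 3 glutathione peroxidases. There are also 3 genes of glutathione synthesis and reduction, 4 glutathione transferases, 3 genes of heme breakdown and iron storage, and 3 further NRF2 target genes. All 39 were found in the table, and all 39 passed the filter on low counts. RNA was sequenced from cultured MDA-MB-231/RR cells, which were derived from the human triple-negative breast cancer line MDA-MB-231 and are resistant to radiation. The groups were 3 libraries of cells co-treated with ortho-topolin riboside (oTR), a cytokinin riboside, and the hormone melatonin, and 3 libraries of control cells. Both groups were grown in DMEM with heat-inactivated serum and antibiotics, and both are of a single line. The labels give no doses, exposure times or vehicle, and cells given either compound alone were not analysed here. Whether libraries within a group are separate cultures is not stated, so each p-value measures the spread between these libraries, which may be technical.

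NRF2, encoded by NFE2L2, is the transcription factor that switches on antioxidant genes. In resting cells the adaptor KEAP1 holds it for degradation, and electrophiles or oxidants release it to pair with small MAF proteins on antioxidant response elements, where the heme-sensing repressor BACH1 competes for the same DNA. The thioredoxin and glutathione systems both draw electrons from NADPH to reduce protein disulfides and peroxides, and ferritin, built of the FTH1 and FTL chains, keeps iron in a form that does not feed oxidant formation.

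The DNA letters through which NRF2 and BACH1 act are shown first for the members whose promoter held them. The core of the antioxidant response element, TGACNNNGC, where N is any base, was searched on both strands in RefSeq promoters of build GRCh38.p14, which run from 250 bases before to 50 bases after a gene's start. Of the 39 genes, 32 were matched to 51 promoters. The other 7, FTH1, GSR, HMOX1, PRDX1, PRDX6, SOD1 and TXN2, had no matching promoter and were not searched. The core was found in 8 of these 51 (15.7%), against 4687 of all 35116 promoters in the table (13.3%), so the share among the members was close to that of promoters at large. The 8 promoters belonged to 7 genes: TXNRD1 with 2 starts, GCLM, GSTP1, KEAP1, GSTO1, MGST1 and PIR. The stretches below lie upstream of the start, read 5′ to 3′ on the gene's own strand, with the core or its reverse complement GCNNNGTCA in capitals. The matches of MGST1 and PIR, which lie after the start, and 1 further match at a TXNRD1 start are not shown.
TXNRD1, first start: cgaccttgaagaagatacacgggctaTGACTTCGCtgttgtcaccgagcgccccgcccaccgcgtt
TXNRD1, second start: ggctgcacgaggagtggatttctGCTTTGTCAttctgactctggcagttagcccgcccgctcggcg
GCLM: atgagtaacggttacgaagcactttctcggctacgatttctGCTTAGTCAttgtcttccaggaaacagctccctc
GSTP1: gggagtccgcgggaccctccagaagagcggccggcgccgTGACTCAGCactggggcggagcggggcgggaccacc
KEAP1: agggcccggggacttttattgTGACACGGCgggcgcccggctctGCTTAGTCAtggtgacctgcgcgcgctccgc
GSTO1: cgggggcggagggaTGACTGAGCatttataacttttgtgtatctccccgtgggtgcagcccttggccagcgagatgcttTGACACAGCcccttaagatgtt
These stretches lie at chr12:104215654-104215719 and chr12:104286907-104286972 (TXNRD1, + strand), chr1:93909431-93909505 (GCLM, - strand), chr11:67583707-67583781 (GSTP1, + strand), chr19:10502772-10502846 (KEAP1, - strand) and chr10:104254652-104254752 (GSTO1, + strand). GSTP1 carries TGACTCAGC, a stricter form of the core that was present in 2 of the 51 promoters (3.92%) and in 197 of all 35116 (0.56%). A match describes letters in a window and not a bound site. Of these 5 genes, TXNRD1 rose and GSTO1 fell in co-treated cells, while GCLM, GSTP1 and KEAP1 did not pass the test.

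The ferritin messages also carry a hairpin in the 5′ untranslated region, the iron responsive element, through which iron regulatory proteins set their translation without a change in mRNA. Its stretches are printed because the ferritin mRNA levels reported further on do not read that control. The loop that these proteins bind is in capitals. The FTH1 element lies at chr11:61967575-61967604 on the - strand and the FTL element at chr19:48965333-48965362 on the + strand (GENCODE v29, GRCh38).
FTH1: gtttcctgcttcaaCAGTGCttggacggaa
FTL: gtctcttgcttcaaCAGTGTttggacggaa

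The libraries held between 50569611 and 72204161 estimated counts in co-treated cells and between 56521572 and 72309015 in control cells. The share of counts on nuclear ribosomal RNA was 0.479% to 1.07% in the co-treated libraries and 0.294% to 0.370% in the control libraries. The mesenchymal marker VIM was abundant in both groups (2224 CPM in co-treated and 2061 CPM in control cells), the receptor genes ESR1 and PGR were at or near 0 in both, and so were the leukocyte markers PTPRC and CD3E, the fibroblast marker DCN and the liver marker ALB. The receptor gene ERBB2 was not near 0, at 70.1 CPM in co-treated and 65.3 CPM in control cells. The keratin genes KRT8, at 521 CPM in co-treated and 543 CPM in control cells, and KRT18, at 324 and 372 CPM, were abundant too. KRT18 fell by 0.20 on the log2 scale (adjusted p = 0.0106, edgeR). CD44 and EGFR were abundant in both groups, EGFR rose by 0.26 (adjusted p = 0.00117, edgeR), and CDH1 was near 0. CD68, a macrophage marker also present in other cells, stood at 25.7 CPM in co-treated and 25.98 CPM in control cells. Of the stromal markers, COL1A1, a collagen chain, was at 17.4 CPM in co-treated and 21.7 CPM in control cells and fell by 0.32 on the log2 scale (adjusted p = 0.0091, edgeR), and PDGFRB was at 6.24 CPM in co-treated and 6.52 CPM in control cells (-0.06, adjusted p = 0.616). Of 10 markers of other cell types, 7 were under 1 CPM in every library, and the 10 summed to 45.5 to 52.9 CPM in co-treated and 51.96 to 56.5 CPM in control libraries; their part in the results was not tested. In bulk RNA, fewer cells of a kind and less RNA per cell cannot be told apart. Values are given below as CPM, counts relative to the library total after scaling by relative log expression factors, and a gene is said to rise or fall only at an adjusted p under 0.05 in edgeR's quasi-likelihood test with Benjamini-Hochberg adjustment over all 16557 genes tested.

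Co-treated cells had less mRNA for the mitochondrial thioredoxin pair TXNRD2 and TXN2, for the NRF2 partner MAFG and for HMOX1. The peroxide-reducing enzymes PRDX3, PRDX4, PRDX5, GPX1 and GPX8 were also lower, but not past the test on the TPM scale, while the catalase gene CAT was higher. Co-treated cells had more mRNA for the repressor BACH1, for the cytosolic reductase TXNRD1, for the glutathione-synthesis subunit GCLC and for the enzymes MGST3 and ABHD4. Of the 39 genes, 22 changed (56.4%), against 33.7% of all genes tested: 7 rose (17.9%, against 16.6% of all genes) and 15 fell (38.5%, against 17.1% of all genes). The share of all genes depends on the count filter. With a minimum count of 50 it was 41.7%, and 7 of the 39 genes rose and 17 fell. The 39 genes were chosen with earlier results of these data known, so these shares are a description with no test. The median log2 fold change of the 39 genes was -0.08, against 0.00 for all genes tested, and the median size of the change regardless of sign was 0.18 against 0.19. The 3 co-treated values lay wholly above the 3 control values for 7 genes and wholly below them for 17. Among all genes tested, 23.3% lay wholly above and 24.1% wholly below. The split depends on the scale: 9 members rose and 9 fell with library size as the sole scaling (23.0% and 12.5% of all genes), 11 rose and 5 fell on the log2(TPM + 1) scale with limma (27.3% and 8.09% of all genes), and 11 rose and 9 fell once a trend of the counts with mRNA length was removed (15.1% and 17.6% of all genes). On the TPM scale the 11 rises were 28.2% of the 39 genes, near the share of all genes. Of the 15 falls, NFE2L2, TRIM16, TXN, PRDX3, PRDX4, PRDX5, SOD1, GPX1, GPX8 and GSTO1 were lost on the TPM scale, TXN, PRDX4, PRDX5, SOD1, GPX1 and GSTO1 with the length trend removed, and NFE2L2, PRDX4, PRDX5, SOD1, GPX1 and GSTO1 with library size as the sole scaling. The TPM scale also moved the median log2 fold change, to 0.09 for all genes and 0.04 for the 39 genes. With library size as the sole scaling it was 0.06 for all genes and -0.02 for the 39 genes. The lower median of the 39 genes was not seen with the length trend removed (0.0025 for all genes, 0.0039 for the 39 genes). With length and GC trends removed the median was 0.0011 for all genes and 0.0137 for the 39 genes. The same direction and call in all 19 alternative analyses was found for 7 of the 22 genes: BACH1, ABHD4, TXNRD1 and MGST3, which rose, and TXNRD2, OSGIN1 and MAFG, which fell.

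**Figure D1:**
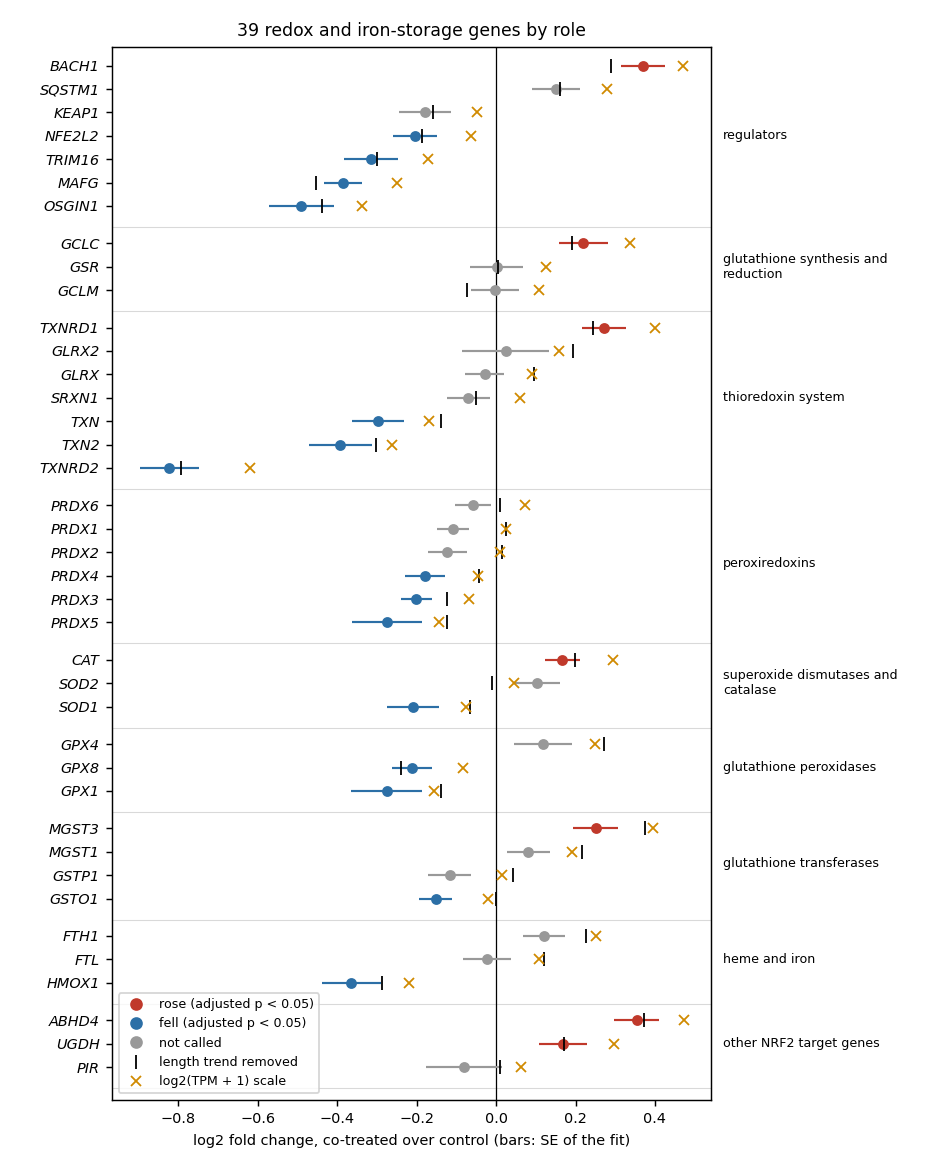
Log2 fold change of each of the 39 genes, co-treated over control, grouped by role; points are the fitted values, coloured by call, and horizontal bars their standard errors. Black ticks show the value with the length trend removed and crosses the value on the log2(TPM + 1) scale, which lies to the right of the fitted value for most genes. PRDX1, PRDX2 and PRDX6 lie below 0 in the fit and above 0 on both other scales.

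Among the 7 genes grouped as regulators, BACH1 rose and 4 fell (14.3% and 57.1%, against 16.6% and 17.1% of all genes). KEAP1 and SQSTM1 were not called. BACH1 (gene ID 571, chromosome 21, 29298922 to 29361896 on GRCh38), the repressor that competes with NRF2, had 49.5, 44.4 and 45.3 CPM in the co-treated libraries, against 35.8, 36.9 and 35.0 CPM in the control libraries. Every co-treated library was above every control library, and the log2 fold change was 0.37 ± 0.06 (SE; adjusted p = 0.000638, edgeR). MAFG (gene ID 4097, chromosome 17, 81918270 to 81927735), a small MAF protein that pairs with NRF2 and with BACH1, had 65.2, 65.9 and 71.4 CPM in co-treated and 87.6, 88.9 and 88.3 CPM in control cells. The groups stood well apart, with the control libraries nearly equal, and the log2 fold change was -0.39 ± 0.05 (SE; adjusted p = 0.000206, edgeR). NFE2L2 (gene ID 4780, chromosome 2, 177230303 to 177265131), the NRF2 gene itself, had 98.3, 85.7 and 89.3 CPM in co-treated and 108, 105 and 102 CPM in control cells. Its fall was small, -0.20 ± 0.06 (log2 fold change, SE; adjusted p = 0.0153, edgeR), although the groups did not overlap. The call was lost without co-treated replicate 2 (-0.16, adjusted p = 0.0697), without co-treated replicate 3 (-0.19, adjusted p = 0.0596) and without control replicate 1 (-0.18, adjusted p = 0.0608), and on the TPM scale (-0.06, adjusted p = 0.558). KEAP1 (gene ID 9817, chromosome 19, 10486125 to 10503356) had 83.2, 96.1 and 95.2 CPM in co-treated and 99.1, 100.5 and 111 CPM in control cells. All co-treated values were lower, and the difference of -0.18 ± 0.06 just missed the threshold (adjusted p = 0.0536, edgeR). It was called by DESeq2 (adjusted p = 0.0222), with a minimum count of 50 (adjusted p = 0.0449) and with length and GC trends removed (-0.12, adjusted p = 0.0298).

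OSGIN1, an NRF2 target that restrains growth (gene ID 29948, chromosome 16, 83953240 to 83966332), had 10.2, 12.2 and 11.4 CPM in co-treated and 16.4, 14.8 and 16.3 CPM in control cells. This was the second largest change of the 39 genes by size, at -0.49 ± 0.08 (log2 fold change, SE; adjusted p = 0.00113, edgeR), with no overlap. TRIM16, a ubiquitin ligase that binds NRF2 and KEAP1 (gene ID 10626, chromosome 17, 15627966 to 15684311), had 30.1, 32.4 and 36.4 CPM in co-treated and 40.9, 41.6 and 40.6 CPM in control cells. It fell by 0.31 on the log2 scale (adjusted p = 0.00468, edgeR), but not on the TPM scale (-0.17, adjusted p = 0.459). Its near-identical copy TRIM16L held counts equal to 59.7% of those of TRIM16 in co-treated and 60.0% in control cells, so reads of the 2 genes may be apportioned between them. SQSTM1, the cargo receptor p62 that can draw KEAP1 into autophagy, had a log2 fold change of 0.15 ± 0.06 (adjusted p = 0.0782, edgeR). Its groups overlapped through co-treated replicate 1, without which it was called (0.22, adjusted p = 0.00704). It was also called upward on the TPM scale (0.28, adjusted p = 0.00713), with library size as the sole scaling (0.21, adjusted p = 0.0177), with the length trend removed (0.16, adjusted p = 0.0472) and by DESeq2 (adjusted p = 0.0349).

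In the thioredoxin system the cytosolic and mitochondrial reductases moved in opposite directions. TXNRD2 (gene ID 10587, chromosome 22, 19875518 to 19941818), the mitochondrial thioredoxin reductase, had 15.6, 18.1 and 17.7 CPM in co-treated cells, against 28.6, 29.9 and 32.6 CPM in control cells. The highest co-treated library lay far below the lowest control library. Its log2 fold change of -0.82 ± 0.07 (SE; adjusted p = 3.56e-05, edgeR) was the largest by size of the 39 genes. TXN2 (gene ID 25828, chromosome 22, 36467036 to 36481672), the mitochondrial thioredoxin that TXNRD2 reduces, had 81.3, 101 and 91.6 CPM in co-treated and 114, 113 and 131 CPM in control cells. It fell by 0.39 ± 0.08 on the log2 scale (SE; adjusted p = 0.00327, edgeR), again without overlap. The TXN2 call was kept in 18 of the 19 alternative analyses and lost in 1. TXNRD1 (gene ID 7296, chromosome 12, 104215779 to 104350307), the cytosolic reductase and a selenoprotein like TXNRD2, had 823, 852 and 961 CPM in co-treated and 717, 742 and 727 CPM in control cells. All 3 co-treated libraries were higher, and the log2 fold change was 0.27 ± 0.06 (SE; adjusted p = 0.00374, edgeR). TXN (gene ID 7295, chromosome 9, 110243810 to 110256507), the cytosolic thioredoxin, moved opposite to its reductase, with 202, 224 and 244 CPM in co-treated and 261, 284 and 279 CPM in control cells. The groups did not overlap, and the log2 fold change was -0.30 ± 0.07 (SE; adjusted p = 0.00543, edgeR). TXN has an mRNA of 736 bases, and its call was lost with the length trend removed (-0.14, adjusted p = 0.0576) and on the TPM scale (-0.17, adjusted p = 0.0688). SRXN1, which repairs overoxidized peroxiredoxins, and the glutaredoxins GLRX and GLRX2, which reduce proteins with electrons from glutathione, were not called (log2 fold changes -0.07, -0.03 and 0.02; edgeR adjusted p = 0.351, 0.691 and 0.888).

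Ratios of counts within a library do not depend on how whole libraries are scaled, and were computed for gene pairs chosen after their values were seen. They can still carry the trend with mRNA length. The mRNA lengths were 3689 bases for TXNRD1, 2338 for TXNRD2, 736 for TXN, 5584 for BACH1 and 2575 for NFE2L2. With that trend removed, the log2 fold changes were 0.24 for TXNRD1, -0.79 for TXNRD2, -0.14 for TXN, 0.29 for BACH1 and -0.19 for NFE2L2. The TXNRD1 to TXNRD2 ratio was 52.7, 47.0 and 54.4 in co-treated and 25.1, 24.8 and 22.3 in control libraries. The TXNRD1 to TXN ratio was 4.07, 3.81 and 3.93 in co-treated and 2.75, 2.62 and 2.60 in control libraries. The BACH1 to NFE2L2 ratio was 0.504, 0.518 and 0.508 in co-treated and 0.331, 0.351 and 0.345 in control libraries. None of these 3 ratios overlapped between the groups, which the choice of genes already seen to differ fixes, so the values are a description. An exact permutation test gave p = 0.1 for each ratio, which decides nothing for pairs chosen in this way.

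**Figure D2:**
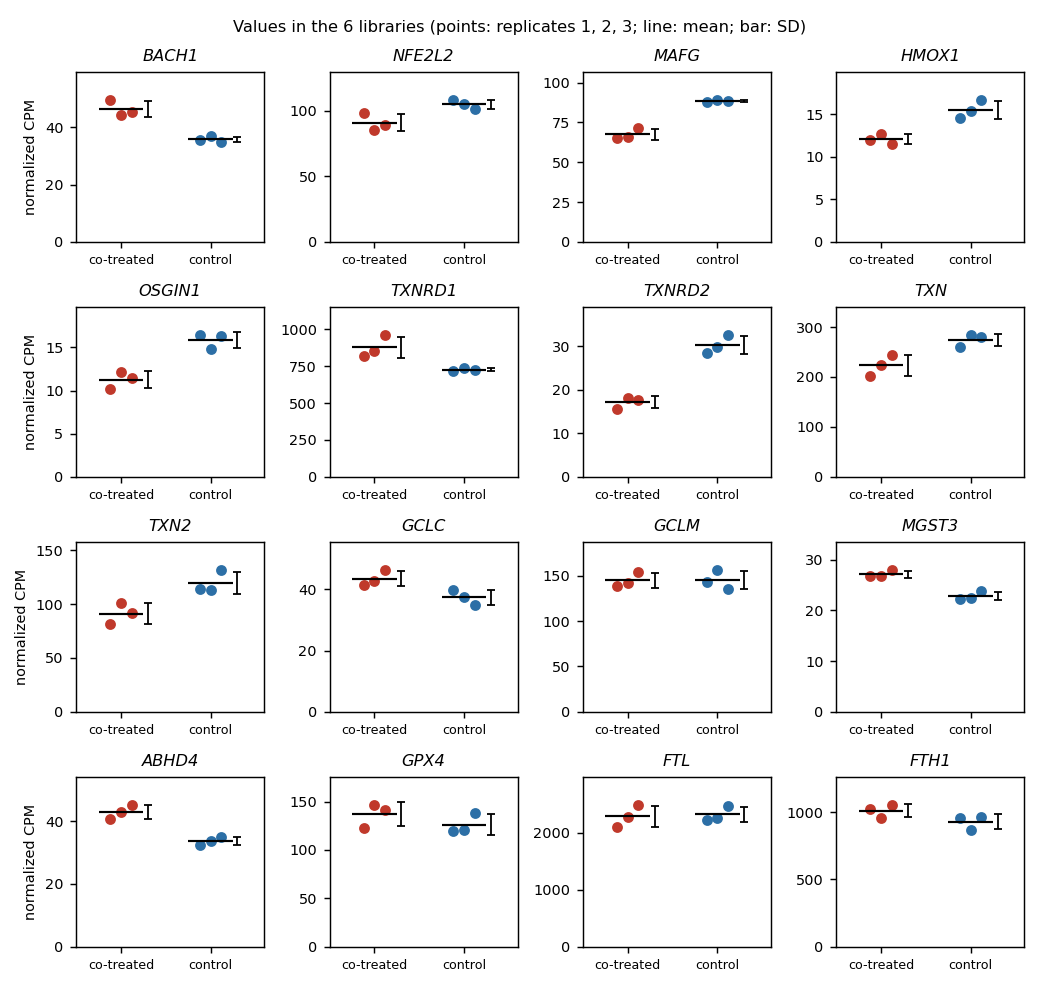
Normalized CPM of 16 of the 39 genes in each library, co-treated at the left and control at the right of each panel, on axes that start at 0. Points are the replicates, lines the group means and bars the SD; TXNRD2 is at 15.6 to 18.1 CPM in co-treated and 28.6 to 32.6 CPM in control libraries, while the GCLM and FTL groups overlap.

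The 6 peroxiredoxins, which reduce hydrogen peroxide with electrons mostly from thioredoxin, all had fitted log2 fold changes below 0, between -0.27 and -0.06, but PRDX1, PRDX2 and PRDX6 lay above 0 on the TPM scale and with the length trend removed. Of all 16557 genes tested, 8222 had values below 0. PRDX1, PRDX2, PRDX4 and PRDX5 have mRNAs under 1000 bases, a length at which the median of all genes was -0.18. PRDX3, PRDX4 and PRDX5 fell (50%, against 17.1% of all genes), and the other 3 were not called. PRDX5 (gene ID 25824, chromosome 11, 64318121 to 64321811), found in mitochondria, peroxisomes and the cytosol, had 70.8, 92.9 and 89.2 CPM in co-treated and 97.6, 99.0 and 109 CPM in control cells. Co-treated replicate 1 stood below the other libraries, and the log2 fold change was -0.27 ± 0.09 (SE; adjusted p = 0.0327, edgeR). That call was lost without co-treated replicate 1 (-0.16, adjusted p = 0.0533), without control replicate 2 (-0.30, adjusted p = 0.0612) and without control replicate 3 (-0.22, adjusted p = 0.113). It was also lost with the length trend removed (-0.12, adjusted p = 0.172), on the TPM scale (-0.14, adjusted p = 0.237) and with library size as the sole scaling (-0.22, adjusted p = 0.0763). PRDX5 shares 476 bases of its span with TRMT112, which had a log2 fold change of -0.30 (adjusted p = 0.00612, edgeR), and the strand of the reads is not given. PRDX3, the mitochondrial peroxiredoxin, fell by 0.20 ± 0.04 on the log2 scale (SE; adjusted p = 0.00323, edgeR) and kept its call with each library left out and with the length trend removed (-0.12), but not on the TPM scale (-0.07, adjusted p = 0.172). PRDX4, the peroxiredoxin of the endoplasmic reticulum, fell by 0.18 on the log2 scale (adjusted p = 0.0192, edgeR). Its call was lost without co-treated replicate 2 (-0.18, adjusted p = 0.0544), co-treated replicate 3 (-0.18, adjusted p = 0.0605) or control replicate 3 (-0.13, adjusted p = 0.0704), and its value was -0.04 with the length trend removed (adjusted p = 0.493) and -0.05 on the TPM scale (adjusted p = 0.435). PRDX1, the cytosolic peroxiredoxin with the highest level of the 6, had a log2 fold change of -0.11 (adjusted p = 0.0571, edgeR), PRDX2 one of -0.12 (adjusted p = 0.0733) and PRDX6 one of -0.06 (adjusted p = 0.351). PRDX1 was called by DESeq2 (adjusted p = 0.0309) and limma-voom (adjusted p = 0.0438), and PRDX2 without control replicate 2 (-0.16, adjusted p = 0.0364).

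Of the enzymes that handle superoxide and hydrogen peroxide, SOD1 fell, CAT rose and SOD2 was not called. SOD1 (gene ID 6647, chromosome 21, 31659693 to 31668931), the cytosolic copper-zinc superoxide dismutase, had 197, 190.5 and 211 CPM in co-treated and 236, 208 and 247 CPM in control cells. The groups overlapped, since control replicate 2 lay below co-treated replicate 3, and the log2 fold change was -0.21 ± 0.06 (SE; adjusted p = 0.0283, edgeR). The call was lost without co-treated replicate 1 (-0.20, adjusted p = 0.0605), co-treated replicate 2 (-0.18, adjusted p = 0.103), control replicate 1 (-0.19, adjusted p = 0.0948) or control replicate 3 (-0.16, adjusted p = 0.11), and the value was -0.07 with the length trend removed (adjusted p = 0.415) and -0.08 on the TPM scale (adjusted p = 0.377). CAT, the peroxisomal catalase, rose by 0.17 ± 0.04 on the log2 scale (SE; adjusted p = 0.0138, edgeR). It lost its call without co-treated replicate 3 (0.15, adjusted p = 0.0603), control replicate 1 (0.16, adjusted p = 0.0518) or control replicate 3 (0.15, adjusted p = 0.0522), and stayed called on the TPM scale (0.29). SOD2, the mitochondrial manganese enzyme, had a log2 fold change of 0.10 (adjusted p = 0.212, edgeR), which turned to -0.01 with the length trend removed. Its span overlaps those of ACAT2 and WTAP.

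The 3 genes of the glutathione peroxidase family did not move together. GPX1 (gene ID 2876, chromosome 3, 49357171 to 49358600), the cytosolic and mitochondrial enzyme, had 215, 280.5 and 265 CPM in co-treated and 286, 301 and 334 CPM in control cells. Co-treated replicate 1 was the lowest library by a wide margin, the groups stood narrowly apart, and the log2 fold change was -0.28 ± 0.09 (SE; adjusted p = 0.0336, edgeR). The call was lost without co-treated replicate 1 (-0.17, adjusted p = 0.0701), without control replicate 2 (-0.29, adjusted p = 0.0674) and without control replicate 3 (-0.21, adjusted p = 0.124). It was also lost with the length trend removed (-0.14, adjusted p = 0.141), on the TPM scale (-0.16, adjusted p = 0.21) and with library size as the sole scaling (-0.22, adjusted p = 0.0764). GPX8 (gene ID 493869, chromosome 5, 55160155 to 55167297), a peroxidase of the endoplasmic reticulum membrane, had 68.5, 61.7 and 64.7 CPM in co-treated and 75.98, 77.1 and 72.8 CPM in control cells. It fell by 0.21 ± 0.05 on the log2 scale (SE; adjusted p = 0.00833, edgeR) with no overlap, but on the TPM scale the value was -0.08 (adjusted p = 0.32). GPX4 (gene ID 2879, chromosome 19, 1103994 to 1106779), the selenoprotein that reduces lipid peroxides in membranes and holds back ferroptosis, had 123, 146 and 142 CPM in co-treated and 119, 121 and 138 CPM in control cells. The groups overlapped, and the log2 fold change of 0.12 ± 0.07 did not pass (adjusted p = 0.246, edgeR). It was called without co-treated replicate 1 (0.19, adjusted p = 0.0461), on the TPM scale (0.25, adjusted p = 0.0254) and with the length trend removed (0.27, adjusted p = 0.00229).

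For glutathione synthesis, the catalytic subunit rose and the modifier subunit did not pass the test. GCLC (gene ID 2729, chromosome 6, 53497341 to 53545101), the catalytic subunit of glutamate-cysteine ligase, had 41.4, 42.9 and 46.3 CPM in co-treated and 39.7, 37.5 and 35.0 CPM in control cells. The groups did not overlap but lay close, and the log2 fold change was 0.22 ± 0.06 (SE; adjusted p = 0.0194, edgeR). The call was lost without co-treated replicate 3 (0.17, adjusted p = 0.0945), without control replicate 2 (0.22, adjusted p = 0.0547) and without control replicate 3 (0.17, adjusted p = 0.0723). GCLM (gene ID 2730, chromosome 1, 93885199 to 93910370), the modifier subunit, had 138, 142 and 154 CPM in co-treated and 143, 156 and 136 CPM in control cells. The values interleaved, with a log2 fold change of -0.0029 ± 0.06 (SE; adjusted p = 0.978, edgeR). The ratio of GCLC to GCLM counts, also chosen after the values were seen, was 0.299, 0.302 and 0.3001 in co-treated and 0.277, 0.240 and 0.258 in control libraries, without overlap. GSR, the reductase that returns oxidized glutathione to its reduced form, had a log2 fold change of 0.00 (adjusted p = 0.988, edgeR).

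Of the 4 glutathione transferases, which join glutathione to electrophiles or reduce lipid peroxides, MGST3 rose, GSTO1 fell and GSTP1 and MGST1 were not called. MGST3 (gene ID 4259, chromosome 1, 165631234 to 165656136), a microsomal enzyme, had 26.8, 26.7 and 27.9 CPM in co-treated and 22.3, 22.4 and 23.8 CPM in control cells. The replicates were tight and the groups apart, with a log2 fold change of 0.25 ± 0.06 (SE; adjusted p = 0.00621, edgeR). Its mRNA is short, at 1042 bases, and its value was larger on the TPM scale (0.39). GSTO1, an omega-class enzyme, fell by 0.15 ± 0.04 on the log2 scale (SE; adjusted p = 0.0171, edgeR). Its call was lost without co-treated replicate 2 (-0.13, adjusted p = 0.0751) and without control replicate 3 (-0.14, adjusted p = 0.0565), and its value was -0.02 on the TPM scale. GSTP1, the pi-class enzyme whose promoter is printed above, had a log2 fold change of -0.12 (adjusted p = 0.122, edgeR), which lay above 0 on the TPM scale (0.01) and with the length trend removed (0.04). MGST1 had a value of 0.08 (adjusted p = 0.284) and was called with the length trend removed (0.22, adjusted p = 0.017).

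Of the heme and iron genes, HMOX1 fell and neither ferritin chain passed the test. HMOX1 (gene ID 3162, chromosome 22, 35381096 to 35394207), heme oxygenase, which frees iron from heme and is a classic target of both NRF2 and BACH1, had 12.02, 12.7 and 11.5 CPM in co-treated cells and 14.6, 15.4 and 16.6 CPM in control cells. The groups did not overlap, and the log2 fold change was -0.36 ± 0.07 (SE; adjusted p = 0.00348, edgeR). The HMOX1 call was kept in 18 of the 19 alternative analyses and lost in 1. FTL (gene ID 2512, chromosome 19, 48963941 to 48966879), the ferritin light chain, had 2106, 2271 and 2486 CPM in co-treated and 2225, 2266 and 2480 CPM in control cells. The libraries interleaved, with a log2 fold change of -0.02 ± 0.06 (adjusted p = 0.805, edgeR) that turned to 0.12 with the length trend removed (adjusted p = 0.0515) and was called with length and GC trends removed (0.18, adjusted p = 0.00188). FTH1 (gene ID 2495, chromosome 11, 61964285 to 61967634), the heavy chain with the ferroxidase site, had 1027, 957 and 1052 CPM in co-treated and 960, 868 and 965 CPM in control cells. The groups overlapped through co-treated replicate 2, and the log2 fold change of 0.12 ± 0.05 did not pass (adjusted p = 0.102, edgeR). FTH1 was called with library size as the sole scaling (0.18, adjusted p = 0.0172), on the TPM scale (0.25, adjusted p = 0.0139) and with the length trend removed (0.23, adjusted p = 0.00596). The FTH1 to FTL ratio, the fifth pair for which a ratio of counts was taken, was 0.488, 0.421 and 0.423 in co-treated and 0.431, 0.383 and 0.389 in control libraries. Here the groups overlapped. The 20 FTH1 pseudogene rows in the table held counts equal to 0.536% of those of FTH1 in co-treated and 0.489% in control cells.

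Among the 3 further NRF2 targets, ABHD4 and UGDH rose and PIR was not called. ABHD4 (gene ID 63874, chromosome 14, 22598238 to 22612864), a hydrolase of N-acyl phospholipids, had 40.7, 42.9 and 45.03 CPM in co-treated and 32.3, 33.6 and 34.8 CPM in control cells. All co-treated libraries were higher, and the log2 fold change was 0.35 ± 0.06 (SE; adjusted p = 0.000887, edgeR). UGDH, which makes the UDP-glucuronate used in conjugation reactions, rose by 0.17 ± 0.06 on the log2 scale (SE; adjusted p = 0.0486, edgeR). It lost that call without co-treated replicate 2 (0.17, adjusted p = 0.0987), co-treated replicate 3 (0.14, adjusted p = 0.167), control replicate 1 (0.12, adjusted p = 0.189) or control replicate 3 (0.16, adjusted p = 0.115), by limma-voom (adjusted p = 0.0516) and with length and GC trends removed (0.13, adjusted p = 0.0795). PIR, which encodes the nuclear iron-binding protein pirin, had a log2 fold change of -0.08 ± 0.10 (adjusted p = 0.553, edgeR). Its direction changed without co-treated replicate 1 (0.00) and on the TPM scale (0.06).

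Levels between genes were compared per length, as TPM, the abundance of transcripts corrected for their length and set to the same total in every library. FTL was the most abundant of the 39 genes, at 6087 ± 400 TPM in co-treated and 5645 ± 218 TPM in control cells (SD, n = 3 each), followed by FTH1 at 1952 ± 96.2 TPM in co-treated and 1638 ± 83.8 TPM in control cells. The 2 ferritin chains made up 49.4% of the summed TPM of the 39 genes in co-treated and 47.4% in control cells. PRDX1 came next, at 1429 ± 30.7 TPM in co-treated and 1405 ± 16.7 TPM in control cells, then TXN at 703 ± 53.9 TPM in co-treated and 789 ± 34.0 TPM in control cells. GPX1 followed at 642 ± 77.6 TPM in co-treated and 713 ± 45.4 TPM in control cells. Between TXN and GPX1 the control libraries overlapped, so the order of those 2 genes is not settled. At the low end of the control order stood BACH1, at 19.3 ± 1.40 TPM in co-treated and 13.6 ± 0.638 TPM in control cells, and OSGIN1, at 13.6 ± 1.08 TPM in co-treated and 17.4 ± 0.909 TPM in control cells. In both groups 19 genes had over 100 TPM and 8 had under 30 TPM. In the control order, 17 of 38 pairs of neighbours overlapped in their libraries. TXNRD2 held place 38 of 39 in co-treated and place 33 in control cells, and BACH1 place 35 in co-treated and place 39 in control cells.

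**Figure D3:**
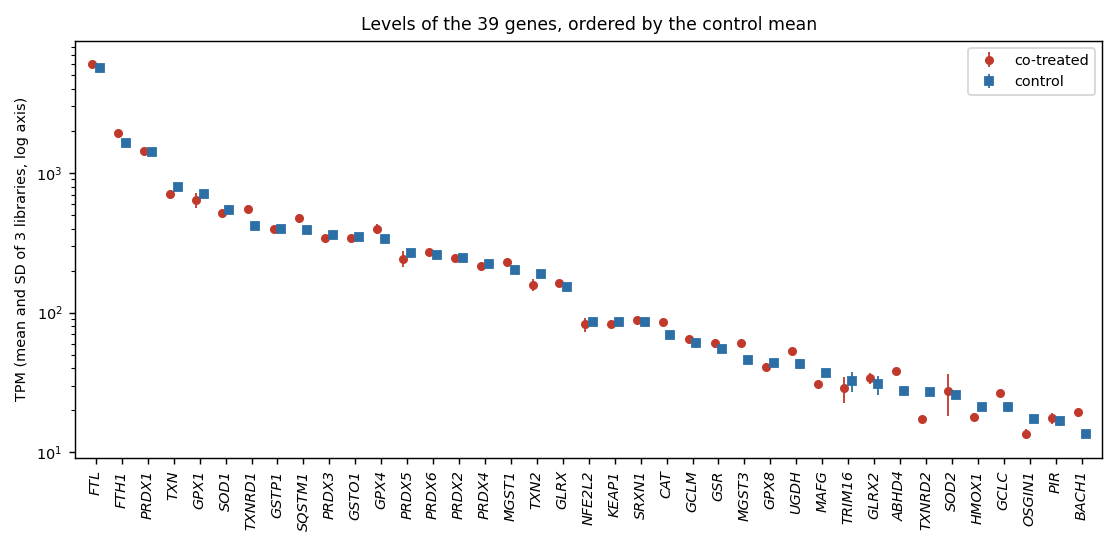
Mean TPM of the 39 genes on a log axis, ordered by the control mean, with co-treated cells as circles at the left and control cells as squares at the right of each position; bars are the SD of 3 libraries. FTL, at 6087 TPM in co-treated and 5645 TPM in control cells, stands above the rest, and TXNRD2 and BACH1 are among the genes whose 2 groups stand apart.

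Fold changes in these libraries moved with the length of the mRNA, and the members tended to have short mRNAs. The median mRNA length was 1554 bases for the 39 genes and 2939 bases for all genes tested. Across genes, which are not independent replicates and share the same 6 libraries, Spearman's correlation of length with log2 fold change was 0.242 over the 39 genes and 0.258 over all 16557. Of 13 members under 1000 bases, none rose and 6 fell by edgeR, where among all genes of that length 2.42% rose and 24.5% fell. Of 9 members between 1000 and 2000 bases, 1 rose and 4 fell, against 7.75% and 22.01% of all genes of that length. Of 13 members between 2000 and 4000 bases, 5 rose and 4 fell, against 15.03% and 17.99%. Of the 4 members over 4000 bases, 1 rose and 1 fell, against 27.7% and 11.1%. From the shortest class to the longest, the median log2 fold changes of the members were -0.12, -0.08, 0.0017 and 0.05. Those of all genes were -0.18, -0.07, -0.0084 and 0.09, so the members under 1000 bases had the smaller median fall. The median length was 3007 bases for the 7 members that rose, 1551 bases for the 15 that fell and 1203 bases for the 17 not called. With the trend removed 6 of the 22 calls were lost and 4 further genes were called. BACH1 (0.29), TXNRD1 (0.24) and ABHD4 (0.37) stayed called upward, and TXNRD2 (-0.79), OSGIN1 (-0.44), MAFG (-0.45) and HMOX1 (-0.29) downward. The share of nuclear ribosomal RNA was higher in each co-treated library than in any control library, and its part in the trend and in the members' changes was not tested.

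**Figure D4:**
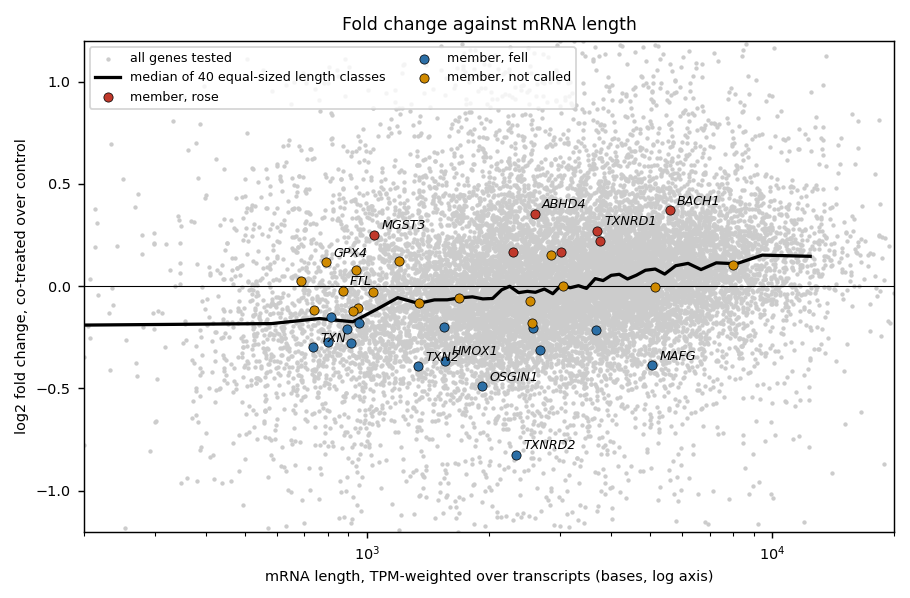
Log2 fold change, co-treated over control, against mRNA length on a log axis for all genes tested (grey; values beyond 1.2 are outside the frame) and for the 39 genes (coloured by call). The black line joins medians of length classes with equal numbers of genes and runs from below 0 for short mRNAs to above 0 for long ones. TXNRD2, at -0.82, lies farthest below it among the 39 genes.

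Of 129 other genes in 5 lists of the same pathways, 118 passed the filter, and 24 rose and 24 fell (40.7% called, against 33.7% of all genes). The rises and the falls were each 20.3% of the tested list genes, against 16.6% and 17.1% of all genes. These lists too were chosen with earlier results of these data known. Among other NRF2 target and pathway genes, 12 of 33 tested rose and 7 fell (36.4% and 21.2%, against 16.6% and 17.1% of all genes). AKR1C1, an aldo-keto reductase of ketone and steroid metabolism, had 4.44, 4.63 and 4.13 CPM in co-treated and 2.00, 1.74 and 2.21 CPM in control cells, a log2 fold change of 1.15 ± 0.13 (SE; adjusted p = 0.000104, edgeR). Its near-identical paralog AKR1C2, at under 1 CPM in every library, had one of 1.11 ± 0.31 (adjusted p = 0.0179, edgeR), and reads can be shared between them. The AKR1C2 call was lost without co-treated replicate 3 (0.85, adjusted p = 0.106), control replicate 2 (1.03, adjusted p = 0.0594) or control replicate 3 (1.08, adjusted p = 0.0551). EPHX1, microsomal epoxide hydrolase, was singled out after its values were seen. It had 28.9, 31.05 and 29.3 CPM in co-treated and 17.9, 15.5 and 17.5 CPM in control cells (log2 fold change 0.81 ± 0.07, SE; adjusted p = 2.34e-05, edgeR). All 3 co-treated libraries were above all 3 control libraries. Downward, AIFM2, the ubiquinone reductase FSP1 that restrains ferroptosis, had a log2 fold change of -0.38 (adjusted p = 0.000616, edgeR), and ABCC2, an efflux pump for conjugates, one of -0.36 (adjusted p = 0.0434). The ABCC2 call was lost without co-treated replicate 1 (-0.37, adjusted p = 0.0765), co-treated replicate 2 (-0.26, adjusted p = 0.142), control replicate 1 (-0.34, adjusted p = 0.103) or control replicate 3 (-0.29, adjusted p = 0.144), on the TPM scale (-0.17, adjusted p = 0.205), with library size as the sole scaling (-0.30, adjusted p = 0.0771) and by limma-voom (adjusted p = 0.0584). NQO1, a quinone reductase and standard NRF2 target, had a log2 fold change of -0.08 (adjusted p = 0.254, edgeR).

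In the list of other thioredoxin and methionine sulfoxide genes, 1 of 20 rose and 7 fell (5% and 35%, against 16.6% and 17.1% of all genes). TXNIP, the protein that binds and inhibits thioredoxin, had 51.8, 49.4 and 50.8 CPM in co-treated and 85.1, 83.7 and 81.2 CPM in control cells, a log2 fold change of -0.72 ± 0.04 (SE; adjusted p = 4.48e-06, edgeR). TXNDC17, a thioredoxin-like protein, had one of -0.30 (adjusted p = 0.00479, edgeR), and NXN, the nucleoredoxin gene, rose by 0.59 (adjusted p = 4.17e-05). Among other glutathione genes 4 of 29 tested rose and 1 fell (13.8% and 3.45%, against 16.6% and 17.1% of all genes). The risers with the largest changes were SLC25A40, a mitochondrial carrier of the glutathione-transporting family (0.33, edgeR adjusted p = 0.00733), and HAGH, which releases glutathione from its lactoyl form (0.23, adjusted p = 0.0174), and the gene that fell was SLC3A2, the heavy chain of the cystine transporter (-0.24, adjusted p = 0.0234). HAGH lost its call without co-treated replicate 2 (0.20, adjusted p = 0.0691), co-treated replicate 3 (0.20, adjusted p = 0.0727), control replicate 1 (0.22, adjusted p = 0.0551) or control replicate 2 (0.19, adjusted p = 0.0718). SLC3A2 lost it without co-treated replicate 2 (-0.25, adjusted p = 0.0511), control replicate 2 (-0.24, adjusted p = 0.0609) or control replicate 3 (-0.21, adjusted p = 0.0809), on the TPM scale (-0.10, adjusted p = 0.275) and with library size as the sole scaling (-0.18, adjusted p = 0.0634). SLC25A40 lost it with length and GC trends removed (0.18, adjusted p = 0.0699).

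The selenoprotein list, chosen because TXNRD1, TXNRD2, GPX1 and GPX4 are selenoproteins, had 4 rises and 2 falls among 15 tested (26.7% and 13.3%, against 16.6% and 17.1% of all genes). SELENOH, a nuclear selenoprotein, and SELENOW, a small thioredoxin-fold protein, had log2 fold changes of -0.46 and -0.37 (edgeR adjusted p = 0.000113 and 0.000332), and SELENOM, of the endoplasmic reticulum, rose by 0.53 (adjusted p = 0.00253). EEFSEC, the elongation factor for selenocysteine, rose by 0.22 (adjusted p = 0.0332) and lost its call without co-treated replicate 2 (0.19, adjusted p = 0.0958), co-treated replicate 3 (0.20, adjusted p = 0.0952), control replicate 1 (0.22, adjusted p = 0.0836) or control replicate 2 (0.18, adjusted p = 0.107). Of 21 other iron genes tested, 3 rose and 7 fell (14.3% and 33.3%, against 16.6% and 17.1% of all genes). TFRC, the transferrin receptor that brings iron into the cell, had 354, 330.2 and 359 CPM in co-treated and 467, 482 and 451 CPM in control cells (log2 fold change -0.42 ± 0.05, SE; adjusted p = 0.000118, edgeR). STEAP3, the endosomal ferrireductase that acts after it, had a log2 fold change of -0.57 (adjusted p = 1.85e-05). SLC40A1, the iron exporter ferroportin, at 3.70 to 4.88 CPM in co-treated and 3.03 to 3.71 CPM in control cells, rose by 0.44 on the log2 scale (adjusted p = 0.0271), and STEAP2, a metalloreductase of iron and copper, by 0.32 (adjusted p = 0.016). The SLC40A1 call was lost without co-treated replicate 1 (0.37, adjusted p = 0.0933), co-treated replicate 3 (0.40, adjusted p = 0.0816), control replicate 2 (0.39, adjusted p = 0.0914) or control replicate 3 (0.39, adjusted p = 0.0867). The STEAP2 call was lost without co-treated replicate 2 (0.29, adjusted p = 0.0522) and control replicate 1 (0.24, adjusted p = 0.0648), with the length trend removed (0.22, adjusted p = 0.067) and with length and GC trends removed (0.14, adjusted p = 0.273). With TPM and no filter on low values, the calls of HAGH (0.31, adjusted p = 0.0723), SLC40A1 (0.40, adjusted p = 0.0811), STEAP2 (0.40, adjusted p = 0.0582) and TXNDC17 (-0.17, adjusted p = 0.0836) were lost.

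**Figure D5:**
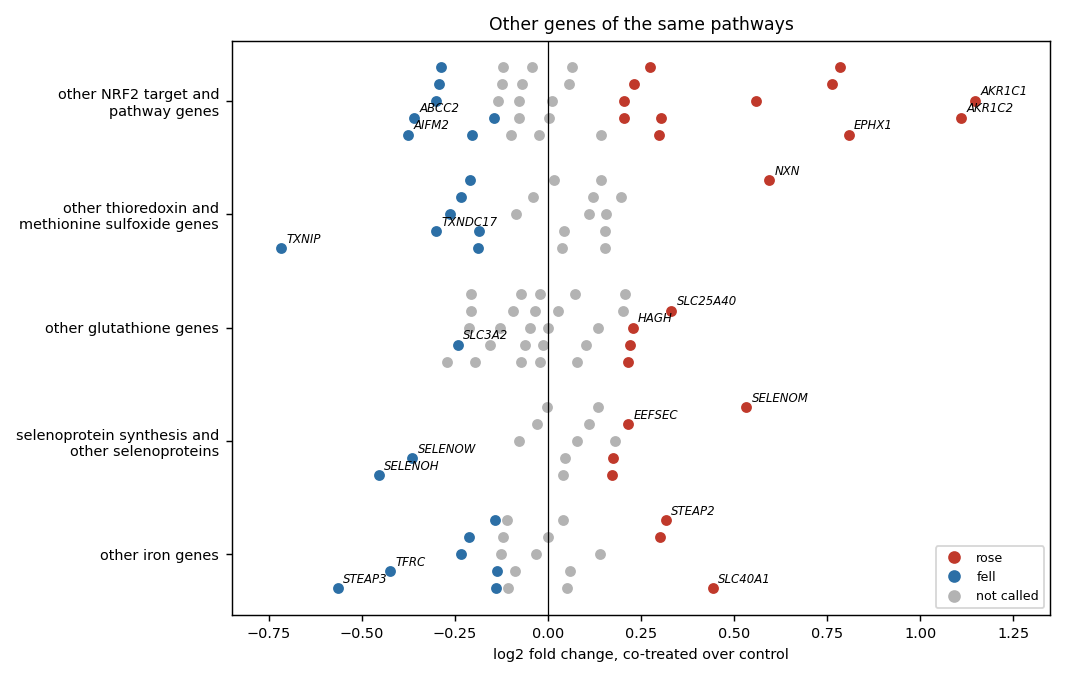
Log2 fold change, co-treated over control, of the other tested genes of the 5 pathway lists, 1 point a gene, coloured by call; the vertical position within a list only keeps points apart. The largest rises are AKR1C1 at 1.15 and AKR1C2 at 1.11, and the largest fall is TXNIP at -0.72.

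The transcript table gave no call for single isoforms of the 39 genes. Of 148 transcripts of these genes, 127 passed the filter and edgeR called 0 of them, where it called 1 of 65252 transcripts in all (0.00153%). At an unadjusted p under 0.05, 22 of the 127 passed with edgeR and 25 with limma-voom, which also called 0. The share of all transcripts at that level was not computed, so no result is read from these counts. Relative use of transcripts was tested with diffSplice of limma in the 29 genes with several tested transcripts, and 0 were called, against 2.49% of all 9961 such genes. At an unadjusted p under 0.05 there were 4: PRDX3, GPX8, BACH1 and GCLM (diffSplice adjusted p = 0.072, 0.12, 0.165 and 0.197). Here too the share of all genes at that level was not computed. In BACH1, whose gene level rose, the main transcript (RefSeq NM_001186) made up 73.2% of the gene's TPM in co-treated and 58.8% in control cells, with 16.9, 13.0 and 12.5 TPM in the co-treated libraries and 8.22, 7.14 and 8.64 TPM in the control libraries. The 2 most abundant TXNRD1 transcripts made up 53.9% and 32.1% of the gene's TPM in co-treated cells, against 53.4% and 34.0% in control cells. These p-values do not show that isoforms were unchanged.

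Reads were assigned without a stated strand, and 7 of the 39 genes overlap another gene that passed the filter. PRDX1 shares 2348 bases with MMACHC, a gene at 18.2 CPM in co-treated and 24.4 CPM in control cells that fell by 0.42 on the log2 scale (adjusted p = 0.000591), while PRDX1 itself was at 584 CPM in co-treated and 629 CPM in control cells. TXNRD1 overlaps EID3 and RPL18AP3, at 0.3 and 10.4 CPM in co-treated and 0.43 and 12.8 CPM in control cells, low beside the 717 to 961 CPM of TXNRD1.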

How the data were processed

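RNA sequencing covered 6 MDA-MB-231/RR libraries, 3 co-treated and 3 control, grouped by their titles. Trimmomatic 0.38, HISAT2 2.1.0, Bowtie2, SAMtools 1.9, StringTie 2.1.3b and build GRCh38 are named, without roles, per the submitters' processing notes and the kit and strand are not stated. Columns headed Con were taken as controls and those headed Mo as co-treated, from the compounds' initials, which no label states. The authors deposited gene and transcript tables of read counts, FPKM and TPM. The deposited counts are estimated counts: 326546 of 326546 low transcript values equalled FPKM times length times a library constant, rounded up (tolerance 0.06 counts), and all 46427 genes held the sum of their transcripts. FPKM, per the file headers, served only that check, and TPM, per the file headers, gave levels and an alternative test with limma; 6 gene FPKM columns were not used. Libraries within a group differed beyond counting noise (chi-square over its degrees of freedom 11.6 to 19.5).

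Genes were filtered with filterByExpr (minimum count 10; 16557 left) and tested with edgeR 4.0.16 (R 4.3.3, quasi-likelihood test, relative log expression factors, the normalization the labels name; Benjamini-Hochberg, threshold 0.05). Gene lengths are TPM-weighted over transcripts, coordinates span a gene's transcripts, and trends were removed per library by lowess (span 0.3). GC content was found for 86.8% of tested genes and all 39 members. Alternatives also used TMM, DESeq2 1.42.0, limma 3.58.1 (voom, and log2 TPM plus 1 or 0.1), a minimum count of 50 or none, the replicate number as a block and each library left out. The 39 members, the 5 lists and the tests were chosen with earlier results of these data known. Values in every library are given for the called members among the 16 largest changes and for 11 genes picked by role, and each list's 2 largest called rises and falls are named. Some genes of the lists and some overlapping genes are not reported here. The gene, trend and transcript tests were first tested on simulated data with known changes. There the share of false calls among gene calls and among transcript usage calls was above the 0.05 threshold, and most known changes of transcript level or usage were missed. Figures were drawn with matplotlib 3.10.9.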

Additional observations from a re-analysis of the deposited data

How the results depend on the processing

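Of 741 member values in alternatives, 550 kept direction and call, 82 lost the call, 38 gained one and 71 changed direction; the cause was not tested where not stated. Against 7 members higher and 15 lower, library size alone gave 9 lower, log2(TPM + 1) and log2(TPM + 0.1) with limma 11 higher and 5 lower each, TPM without a filter 11 in all with 3 lower, the length trend removed 11 higher and 9 lower, and length and GC trends removed 11 higher. Over all genes, log2(TPM + 1) gave 4516 higher and 1339 lower, log2(TPM + 0.1) 4490 and 1338, and TPM without a filter 968 lower; the median of all genes was 0.09, 0.12 and 0.03. Of the pathway genes, library size alone gave 12 lower, log2(TPM + 1) 41 higher and 8 lower, log2(TPM + 0.1) 43 higher and 8 lower, and TPM without a filter 7 lower. With 1 library left out, 14 to 21 members were called (4 to 9 higher, 10 to 14 lower; 14 without control replicate 3, 17 without co-treated replicate 3), 2065 to 2357 genes higher and 2158 to 2469 lower, 34 to 44 pathway genes (16 to 25 higher, 14 to 19 lower), 0 member transcripts and 0 to 2 members by usage. Whether the replicate numbers pair the libraries was not settled. Deviations of same-numbered libraries correlated at 0.25, -0.02 and 0.12. Replicates 1 and 3 correlated best with their own number, and replicate 2 did not. The replicate block called 9 members higher and 17 lower (3177 and 3190 genes), and the replicate block with the length trend removed 12 and 12.

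The values that changed direction, in log2, belonged to members not called, except PRDX4 and GSTO1. On the log2(TPM + 1) scale, with or without a filter, they were GCLM 0.108, SRXN1 0.0599, GLRX 0.0909, PRDX1 0.0242, PRDX2 0.0089, PRDX6 0.0725, GSTP1 0.0141, FTL 0.107 and PIR 0.0638, and with a pseudocount of 0.1 GCLM 0.11, SRXN1 0.0605, GLRX 0.0914, PRDX1 0.0242, PRDX2 0.009, PRDX6 0.0728, GSTP1 0.0142, FTL 0.107 and PIR 0.0671. With the length trend removed they were GLRX 0.0965, PRDX1 0.0259, PRDX2 0.0143, PRDX6 0.011, SOD2 -0.0116, GSTP1 0.0438, FTL 0.121 and PIR 0.0086, and with the replicate block added GLRX 0.0962, PRDX1 0.0253, PRDX2 0.0151, PRDX6 0.0101, SOD2 -0.0101, GSTP1 0.044, FTL 0.12 and PIR 0.0051. With length and GC trends removed they were SRXN1 0.0048, GLRX 0.0977, PRDX1 0.0675, PRDX2 0.0707, PRDX4 0.0006, PRDX6 0.0137, SOD2 -0.0448, GSTP1 0.0804, GSTO1 0.0099, FTL 0.178 and PIR 0.0506. With library size alone they were GCLM 0.0552, GLRX 0.0303, PRDX6 0.0005 and FTL 0.0363. GSR was -0.0018 without a filter and -0.0011 with the replicate block. With 1 library left out, the ranges were -0.0501 to 0.0507 for GCLM, -0.0682 to 0.0688 for GSR, -0.0645 to 0.0122 for GLRX, -0.0907 to 0.106 for GLRX2, -0.0856 to 0.0334 for FTL and -0.169 to 0.001 for PIR. AKR1C2 was removed by a minimum count of 50.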
